A study of Mus musculus with 8 samples.

Results

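The genes described here are 7 subunits of the voltage-gated sodium channels of neurons, the alpha subunits Scn1a, Scn2a1, Scn3a and Scn8a and the beta subunits Scn2b, Scn3b and Scn4b. They were taken by gene name from a table of 23335 gene names, 16531 of which had at least 1 counted molecule. The table holds single chandelier cells (ChC) and parvalbumin (Pv) fast-spiking interneurons of frontal cortex, picked by hand for red fluorescence and amplified in 8 library batches of 16 cells. Each molecule carried a random tag, so values are counts of distinct tags (UMI). After removal of 2 cells without counts, 63 ChC and 63 Pv cells were left.

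ChC came from Nkx2.1-CreER; Ai14 mice. Batches 1 and 2 came from animal 1 at postnatal day 31, and batches 3 and 4 from animal 2 at postnatal day 32. Induction was with 150 µl of tamoxifen at 20 mg/ml on E17.5, an entry that the labels carry for every sample although it names only the CreER line. Pv cells came from Pv-ires-Cre; Ai14 mice. Batches 5 and 6 came from animal 3 at postnatal day 29, and batches 7 and 8 from animal 4 at postnatal day 35. All 4 mice were female, and the sample titles give them as WT. Batches 1, 2, 5 and 6 were labeled lane 1 and batches 3, 4, 7 and 8 lane 2. Within a cell type, lane therefore went with animal. Each label depends on the promoter that drives the recombinase. Each cell type had its own mouse line and flow cell, so effects of these 3 cannot be told apart.

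Sodium channels open on depolarization and carry the inward current of the action potential. An alpha subunit forms the whole pore, while beta subunits, single-pass membrane proteins, modify gating and placement in the membrane. Cortical interneurons are known for Scn1a, excitatory axons for Scn2a1, developing neurons for Scn3a, and mature axon initial segments for Scn8a.

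Depth differed more between batches than between cell types. Totals were 448121, 556405, 2460679 and 1123083 UMI for batches 1 to 4 (ChC) and 392580, 430860, 316540 and 797177 UMI for batches 5 to 8 (Pv). Levels are therefore given as CPM, the UMI of a gene per 10⁶ UMI of its batch, with SD over 4 batches. The 7 markers of GABAergic interneurons, led by Slc32a1, summed to between 3836 and 5136 CPM in ChC and between 3213 and 7187 CPM in Pv batches. The label of the Pv cells was checked by Pvalb, the calcium buffer that names them, which averaged 134 ± 48.1 CPM in ChC and 1073 ± 449 CPM in Pv batches, without overlap.

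Some batches stood apart in transcripts of other cell types. Slc17a7, the vesicular glutamate transporter of pyramidal neurons, was at 348 CPM in batch 7, 86.4 in batch 4, 48.5 in batch 2, 26.3 in batch 8 and 7.64 in batch 5, and at 0 in batches 1, 3 and 6. The 6 pyramidal markers, led by Slc17a7, summed to 11.2, 53.9, 5.28 and 101 CPM in ChC and to 12.7, 2.32, 392 and 31.4 CPM in Pv batches, with Neurod6, Tbr1 and Emx1 at 0 in all 8 batches. Batch 4 had 59.7 CPM of the 5 microglial markers, of which Aif1 gave 19.6 CPM, against 15.8 CPM in batch 7 and at most 1.80 CPM elsewhere, with C1qa at 0 throughout. The 5 oligodendrocyte markers, led by Mbp, summed to 108 CPM in batch 4, 104 in batch 7, 61 in batch 3, 55.2 in batch 8 and at most 7.64 in the rest, with Mag and Mobp at 0. The 5 astrocyte markers, led by Slc1a3, summed to 22.3, 135, 108 and 310 CPM in ChC and to 12.7, 6.96, 231 and 110 CPM in Pv batches, with Gfap at 0. The 4 endothelial markers, led by Tek, summed to 37.9, 57.5, 15.04 and 27.6 CPM in ChC and to 12.7, 37.1, 88.5 and 26.3 CPM in Pv batches, with Cldn5 at 0. Of 6 markers of other interneurons, 5 were in the table, and these differed among themselves. Vip was at 0 throughout and Sst had 1 UMI. Npy was at 557 CPM in batch 8, 415 in batch 4 and 79.1 in batch 2, and at most 0.813 in the others. Cck, the most abundant, was at 357 CPM in batch 6, 345 in batch 4, 300 in batch 3 and 269 in batch 7, and Reln was highest in batch 4 at 485 CPM.

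Scn1a, the alpha subunit Nav1.1, had 3006 UMI and Scn8a 2635 over all batches, an order that leaned on the deep batch 3, which held 1478 of the Scn1a UMI. Its ChC batches were at 707, 325, 601 and 129 CPM, and its Pv batches at 395, 487, 411 and 489 CPM. The means were alike, at 441 ± 263 CPM in ChC and 446 ± 49.8 CPM in Pv, but the ChC batches spread 5.48-fold and the Pv batches 1.24-fold. In ChC, 2 batches lay above and 2 below all Pv batches. Both low batches, 2 and 4, shared an animal with a high one: batches 1 and 2 of animal 1 differed 2.18-fold, and batches 3 and 4 of animal 2 differed 4.65-fold. The fitted log2 fold change of ChC over Pv, from edgeR's quasi-likelihood test on UMI summed per animal, was 0.11 ± 0.54 (SE, adjusted p = 0.999).

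Scn8a, the alpha subunit Nav1.6, varied least of the tested members in ChC, while Scn1a varied less in Pv. It was at 507, 372, 417 and 351 CPM in ChC and at 359, 283, 379 and 498 CPM in Pv batches. The groups overlapped, with means of 412 ± 69.1 and 380 ± 89.0 CPM, and batches of one animal differed by no more than 1.36-fold. The log2 fold change was 0.15 ± 0.57 (SE, edgeR adjusted p = 0.999). Scn8a was also the only member with more than 1 row in the table, a long transcript with 1855 UMI in ChC and 780 in Pv and a shorter one inside it with 1745 and 763. The long row was at least as high as the short one in every cell, so the larger row was used and the sum was kept as an alternative.

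Scn2a1, the alpha subunit Nav1.2, had a lower mean than both in each cell type, although in batch 4 it was level with Scn1a. Its ChC batches held 69.2, 115, 95.9 and 134 CPM, and its Pv batches 17.8, 111, 231 and 32.6 CPM. The Pv range enclosed the ChC range, and batches of one Pv animal differed 6.25-fold (animal 3) and 7.07-fold (animal 4). The log2 fold change was 0.43 ± 0.98 (SE, edgeR adjusted p = 0.993). It became 1.02 without batch 7 and −0.35 without batch 8. Batch 7, highest in Scn2a1, was also highest in Slc17a7, and batches 4 and 2, the next in Scn2a1, were the next in Slc17a7. The other batches did not keep this order: batches 6, 3 and 1, with none of Slc17a7, were higher in Scn2a1 than batches 8 and 5, which had some. The part of pyramidal transcripts in the Scn2a1 values was not tested.

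Scn3a, the alpha subunit Nav1.3, had the lowest mean CPM of the alpha subunits in each cell type and, among them, the largest fitted difference. It had 36, 7, 89 and 46 UMI in the ChC batches, or 80.3, 12.6, 36.2 and 41 CPM. The Pv batches had 3, 1, 3 and 2 UMI, or 7.64, 2.32, 9.48 and 2.51 CPM. All ChC batches thus lay above all Pv batches, by a margin of 12.6 against 9.48 CPM at the closest pair. Pooled over a cell type, the level was 38.8 CPM in ChC (exact Poisson 95% interval 33.3 to 44.9) and 4.65 CPM in Pv (2.12 to 8.82), intervals that cover counting error only. The log2 fold change was 3.13 ± 1.47 (SE), which edgeR did not call (adjusted p = 0.797). Over 17 alternatives the log2 fold change stayed between 2.45 and 3.83 with adjusted p between 0.477 and 1.00. Batch 1, highest in Scn3a, had 11.2 CPM of the pyramidal, 6.69 CPM of the oligodendrocyte and 0 CPM of the microglial markers. Batch 4, the next in Scn3a, had 101 CPM of the pyramidal markers and the highest sums of the astrocyte, oligodendrocyte and microglial markers. Their part in the Scn3a values was not tested.

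**Figure D1:**
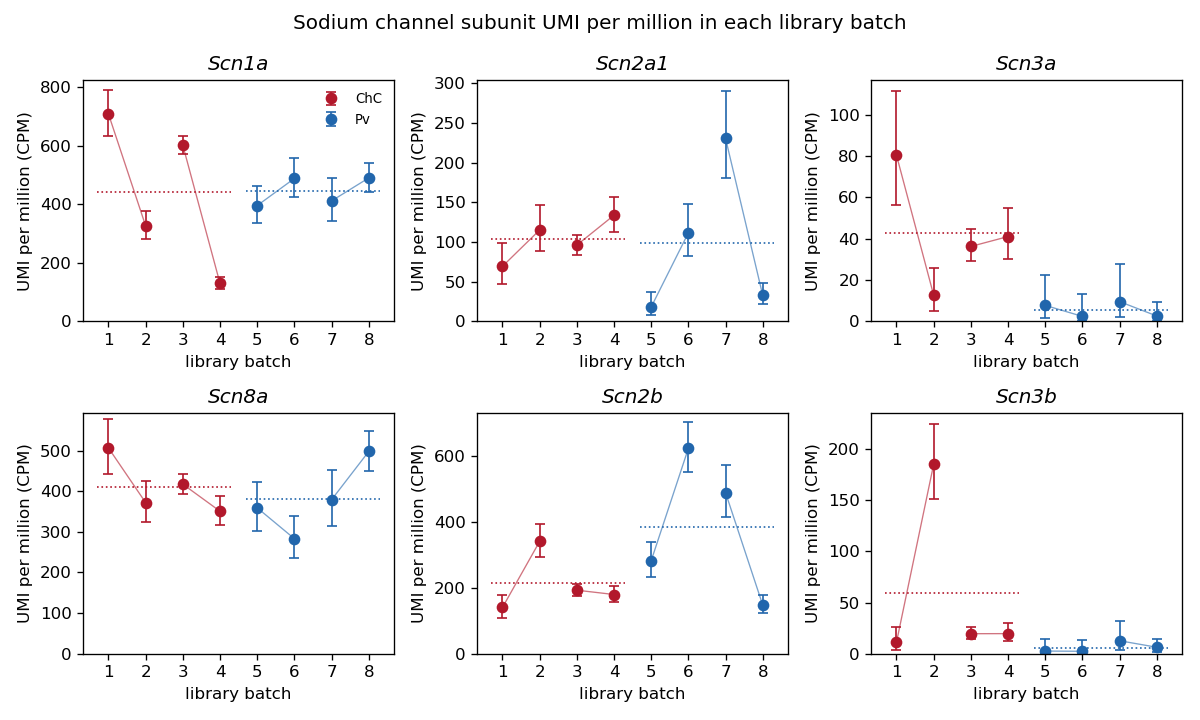
Level (CPM, vertical axis, linear from 0) of 6 sodium channel subunits in each library batch (horizontal axis), with ChC batches in red and Pv batches in blue. Points carry exact Poisson 95% intervals of the count, solid lines join the batches of one animal and dotted lines mark the mean of 4 batches; Scn3a in ChC stays above all Pv batches, while Scn3b is high in batch 2 alone at 185 CPM.

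The alpha subunit balance was compared as the share of each gene in the UMI of all 4 alpha members of a batch, which asks whether the cell types differ in the mix and not in the amount. The 4 genes summed to 998 ± 319 CPM in ChC and 929 ± 120 CPM in Pv batches. Scn1a made up 51.9, 39.4, 52.2 and 19.7% of these UMI in ChC batches and 50.7, 55.1, 39.9 and 47.9% in Pv batches. Scn8a made up 37.2, 45.1, 36.3 and 53.6% in ChC and 46.1, 32.0, 36.8 and 48.7% in Pv. Both shares overlapped between cell types, and the order of Scn1a and Scn8a turned over in batches 2 and 4 of ChC and in batch 8 of Pv. The mean share in ChC was 40.8% for Scn1a and 43% for Scn8a, and in Pv it was 48.4% and 40.9%.

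Scn2a1 held 11.9 ± 6.73% of the alpha UMI in ChC and 10.1 ± 9.42% in Pv batches (SD, n = 4). Its highest shares were 22.4% in batch 7 and 20.4% in batch 4. Scn3a held 5.89, 1.53, 3.14 and 6.26% in ChC batches and 0.980, 0.262, 0.920 and 0.245% in Pv batches, again without overlap. Batch 2, the lowest in ChC, had a Wilson 95% interval of 0.741 to 3.11% that includes the highest Pv value.

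With animals as samples, the ChC mean minus the Pv mean was −7.56 percentage points for Scn1a, 1.82 for Scn2a1, 3.60 for Scn3a and 2.13 for Scn8a. The two-sided exact permutation p was 0.333 for Scn3a, the smallest that 2 against 2 animals allow, and 0.667 for each of the others. Over the 7 shares compared in both families, all of these had a Benjamini-Hochberg adjusted p of 0.778. With the 8 batches as samples, of which pairs share an animal, the exact permutation p for Scn3a was 0.0286. This is the smallest that 4 against 4 allow. After adjustment over the 7 shares it was 0.0667. Both adjustments counted the shares of Scn2b and Scn3b as separate, although these mirror each other. Leaving out batch 4 turned the sign of 3 differences, to 0.567 points for Scn1a, −1.19 for Scn2a1 and −2.20 for Scn8a.

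How the balance reads also depends on what a UMI is divided by. Summing both Scn8a rows put Scn8a first, at 59% in ChC and 57.4% in Pv, with Scn1a at 29.5 and 34.7%. Division by exonic length put Scn1a first, at 45.7% in ChC and 53.8% in Pv, with Scn8a at 37.3 and 35.0%. Division by genomic span brought them level in ChC, at 37.6% for Scn1a and 37.8% for Scn8a, but not in Pv, at 45.6 and 37.6%.

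**Figure D2:**
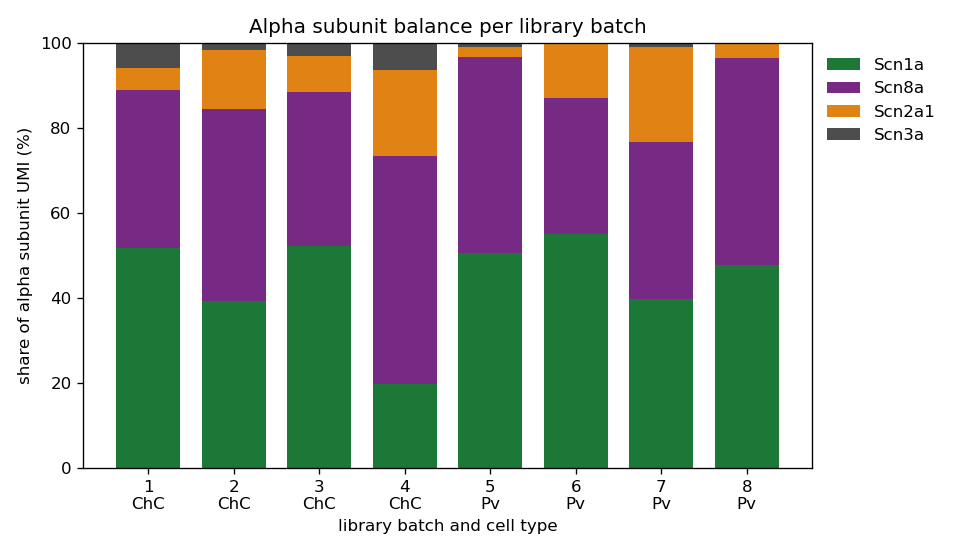
Stacked bars give the share (%) of each alpha subunit in the UMI of the 4 alpha subunits (vertical axis, 0 to 100) for each library batch, with the cell type under the batch number. Scn1a and Scn8a fill most of each bar, Scn1a is smallest in batch 4 at 19.7%, and Scn3a stays under 1% in each Pv batch.

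Cells of some batches were alike in balance and those of others were mixed. Of 98 cells with at least 10 alpha UMI, Scn1a led in 58, Scn8a in 39 and Scn2a1 in 1, a Pv cell of batch 7, while Scn3a led in none. Scn1a led in all 14 such cells of batch 3 and all 10 of batch 6, and Scn8a led in all 13 of batch 4. The other batches were mixed, with Scn1a ahead of Scn8a in 9 cells against 2 in batch 1, 7 against 6 in batch 5, 7 against 5 in batch 7 and 8 against 7 in batch 8, and behind it in batch 2 with 3 against 6. The Scn1a share ran from 14.3 to 31.4% over the cells of batch 4 and from 48.4 to 66.7% over those of batch 3, so these batches of one animal did not overlap cell by cell. In batch 7 it ran from 20.0 to 60.9% and in batch 8 from 31.5 to 66.7%.

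To measure the spread between cells, the UMI of a gene were set against those that equal shares of each cell total would give, as a chi-square divided by its degrees of freedom, where counting error alone gives about 1. For the 26 pairs of a member and a batch with at least 100 UMI the median was 0.937 (range 0.337 to 2.09). It was 0.901 over 8 batches for Scn1a, 0.984 for Scn8a and 0.845 over 7 batches for Scn2b. All genes of that depth gave batch medians from 0.991 to 1.25. Members lay on both sides of these, from 0.337 and 0.580 for Scn2a1 in batches 3 and 4 to 1.74 and 2.09 for Scn8a in batches 5 and 8.

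**Figure D3:**
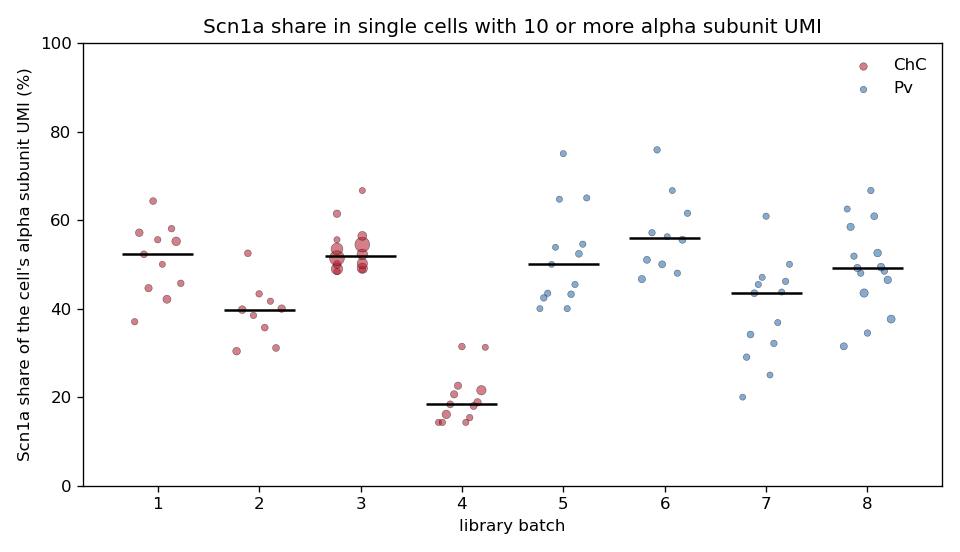
Each point is a cell with at least 10 alpha subunit UMI, placed by library batch (horizontal axis) and by the share of Scn1a in its alpha UMI (vertical axis, %), with larger points for more alpha UMI and bars at the batch median. The cells of batch 4 lie between 14.3 and 31.4%, below every cell of batch 3.

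Scn1a, Scn2a1 and Scn3a are neighbors in a chromosome 2 cluster with similar sequences, and how reads of shared stretches were assigned was not tested. Scn3a lies at chr2:65295175-65405549 on the minus strand, Scn2a1 at chr2:65508502-65605504 on the plus strand and Scn1a at chr2:66108839-66278894 on the minus strand (mm9), while Scn8a lies at chr15:100701114-100876360 on the plus strand. In the longest GENCODE transcript of each gene, 298 of the 8337 runs of 50 bases in Scn1a also occur in Scn2a1 and 287 in Scn3a, and 483 of the 8790 in Scn2a1 occur in Scn3a. Scn8a shared none with Scn1a or Scn2a1 and 6 with Scn3a.

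Scn2b, whose protein binds the alpha subunit through a disulfide bond, was the main beta transcript. It was at 141, 342, 193 and 180 CPM in ChC and at 283, 624, 490 and 148 CPM in Pv batches. Only batch 1 of ChC lay below all Pv batches, and the means of 214 ± 88.0 and 386 ± 212 CPM were within the spread of the batches. The log2 fold change was −0.67 ± 0.69 (SE, edgeR adjusted p = 0.982), and without animal 3 it was 0.04. The batches of Pv animal 3 differed 2.21-fold and those of animal 4 differed 3.31-fold.

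The Scn2b count cannot be assigned to a strand. Scn2b lies at chr9:44925959-44938153 on the plus strand, inside the span of Gm10684 on the minus strand (chr9:44915259-44943689), whose annotated exons do not touch it. Yet Gm10684 had 1584 UMI and Scn2b 1583, with equal counts in 125 of 126 cells. Over the table, 204 pairs had a row with at least 10 UMI inside a row of another gene on the opposite strand, and in 203 of them (99.5%) the outer row was at least as high as the inner in every cell. Values of these rows were thus kept apart neither by strand nor by exon. The annotation also places Gm13630 opposite Scn1a and Gm13595 opposite Scn3a, neither of them a row of the table, and UMI from these loci could not be told apart from those of the channels.

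Scn3b, a beta subunit without the disulfide bond, had 5, 103, 48 and 22 UMI in ChC batches, or 11.2, 185, 19.5 and 19.6 CPM. The Pv batches had 1, 1, 4 and 5 UMI, or 2.55, 2.32, 12.6 and 6.27 CPM. The ranges overlapped, with batch 1 of ChC just below batch 7 of Pv, and 3 of 4 ChC batches above all Pv batches. The log2 fold change of 3.69 ± 1.61 (SE) was not called (edgeR adjusted p = 0.769, unadjusted p = 0.0483). It was 1.69 without batch 2, which held 103 of the 178 ChC UMI. In batch 2, Slc17a7 was at 48.5 CPM, below batches 4 and 7, and the endothelial markers were the highest of the ChC batches at 57.5 CPM. Their part in the Scn3b values was not tested.

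Scn4b, the beta subunit linked to resurgent current, was almost undetected. It had 0 of 4588288 UMI in ChC, where 3 UMI would be 0.654 CPM and the exact Poisson 95% upper limit is 0.804 CPM, and 1 of 1937157 UMI in Pv, in batch 8, or 0.516 CPM (exact Poisson 95% interval 0.0131 to 2.88). It failed the filter on low counts, so 6 of 7 members were tested, and no fold is given.

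In the beta family, Scn2b held 92.7, 64.8, 90.8 and 90.2% of the UMI in ChC batches and 99.1, 99.6, 97.5 and 95.2% in Pv batches. Nearly all the rest was Scn3b, at 7.35, 35.2, 9.18 and 9.82% in ChC and 0.893, 0.370, 2.52 and 4.03% in Pv batches. These shares did not overlap between cell types, although Scn3b CPM did. The ChC mean minus the Pv mean was −13.2 percentage points for Scn2b and 13.4 for Scn3b. Each had a two-sided exact permutation p of 0.333 over animals and 0.0286 over batches (0.0667 after adjustment over the 7 shares). With Scn4b almost undetected, the shares of Scn2b and Scn3b mirror each other, so these tests are not separate. The adjustment still counted them as separate. Without batch 2 the differences were −6.27 and 6.47 points. The beta family had 0.111, 0.638, 0.185 and 0.305 UMI per alpha UMI in ChC batches and 0.366, 0.709, 0.488 and 0.152 in Pv batches, which overlapped.

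In CPM, Scn1a had the highest mean of the members in both cell types, at 441 in ChC and 446 in Pv. Scn2b was below Scn8a in ChC, at 214 against 412 CPM, and beside it in Pv, at 386 against 380 CPM. The order of levels between genes was also taken per kilobase of the longest annotated transcript. In ChC it ran from Scn1a (52.5 ± 31.3 CPM per kb) through Scn2b (46.9 ± 19.3), Scn8a (37.6 ± 6.31), Scn3b (13 ± 18.7) and Scn2a1 (11.7 ± 3.11) to Scn3a (4.45 ± 2.94). The steps from Scn8a to Scn3b and from Scn2a1 to Scn3a exceeded the larger SD of the pair, and the other steps did not. In Pv it ran from Scn2b (84.7 ± 46.5 CPM per kb) through Scn1a (53.1 ± 5.94), Scn8a (34.7 ± 8.13), Scn2a1 (11.1 ± 11) and Scn3b (1.32 ± 1.07) to Scn3a (0.574 ± 0.379). There the steps from Scn1a to Scn8a and from Scn8a to Scn2a1 exceeded it. A UMI marks 1 molecule of any length, so both this length and genomic span are doubtful divisors. Rows were also not kept apart by exon, which adds to the doubt for this length. Per kilobase of genomic span, Scn2b came first in both cell types, at 17.53 ± 7.22 CPM in ChC and 31.7 ± 17.4 CPM in Pv. On that scale Scn1a was at 2.59 ± 1.55 CPM in ChC and 2.62 ± 0.293 CPM in Pv, and Scn8a at 2.35 ± 0.394 and 2.17 ± 0.507 CPM. Scn3b was at 2.63 ± 3.76 and 0.265 ± 0.215 CPM per kilobase of span, and Scn3a was the lowest of the 6 members tested in both cell types. On both scales per kilobase the place of Scn3b in ChC leaned on batch 2. Scn3b was at 185 CPM there, against 11.2 to 19.6 CPM in the other ChC batches.

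Across all genes, edgeR called 0 of 9681 genes between the animals at an adjusted p of 0.05 (0%), with 618 at an unadjusted p under 0.05, while DESeq2 called 158. None of the 6 members tested was called by either. Of these 6, all ChC batches were above all Pv batches for 1, Scn3a, and below for 0, against 2.21% and 2.05% of the 9681 genes. The 4 alpha members had a median log2 fold change of 0.29, beside 0.05 over all genes tested.

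Detection in single cells was compared after each cell was thinned to 10000 UMI, which left out 15 ChC and 8 Pv cells. Scn1a was found in 94.6 ± 10.7% of ChC and 98.4 ± 3.12% of Pv cells, Scn8a in 98.2 ± 3.57 and 93.9 ± 7.93%, and Scn2b in 83.4 ± 22.6 and 93.8 ± 12.5% (mean and SD over 4 batches). Scn2a1 was found in 64.2 ± 9.12% of ChC cells and in 51.6 ± 34.1% of Pv cells, with 92.3% in batch 7 and 18.8% in batch 8. At 5000 UMI a cell the order turned, with Scn2a1 in 25.2% of ChC and 31.95% of Pv cells. Scn3a was found in 44.2 ± 37.6% of ChC cells, from 0 of 9 in batch 2 to 10 of 11 in batch 1, and in 7.71 ± 6.30% of Pv cells. Scn3b was found in 24.8 ± 29.0% and 9.42 ± 9.77%, with 6 of 9 cells in batch 2. Without thinning, Scn3a was found in 60.6% of ChC and 12.6% of Pv cells and Scn3b in 55.4 and 17.3%.

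Genes that these cells should lack set the background of such shares. At the same depth, Slc17a7 was found in 28.2 ± 32.5% of ChC and 29.9 ± 47% of Pv cells, Mbp in 13.5 and 26%, Aqp4 in 8.12 and 11.3% and Cx3cr1 in 1.79 and 0%, while Neurod6 and Cldn5 were found in no cell. The mean shares of Scn3a and Scn3b in Pv cells lay below those of Slc17a7 and Mbp, a background that differed widely between batches, and could not be told apart from it. In ChC batches, Scn3b was found in 18.2, 66.7, 14.3 and 0% of cells and Slc17a7 in 0, 55.6, 0 and 57.1%. Scn3b was thus above Slc17a7 in 3 of 4 ChC batches, although its mean was below. Scn3a was found in 90.9, 0, 35.7 and 50% of the cells of ChC batches 1 to 4. It was above Slc17a7 in batches 1 and 3 and below it in batches 2 and 4. Scn4b was found in 0 of 48 ChC cells, which allows up to 6.25% of cells with a UMI at this depth, and in 0 of 55 Pv cells, which allows up to 5.45%. These limits do not bound the share of cells that express it, and without thinning 1 Pv cell held a UMI.

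Across the cells of a batch, pairs of members detected in that batch, at most 15 of them besides those of Scn4b, which was detected in 1 batch, had a mean Spearman correlation of 0.57 ± 0.27 (SD over 8 batches) on UMI. All pairs of genes detected in at least 50% of cells, a limit not set for the members, had 0.59 ± 0.17. After division by the cell total it was 0.08 ± 0.12, beside 0.05 ± 0.04. With cells thinned to 10000 UMI it was −0.01 ± 0.07, beside 0.00 ± 0.01. Cells of a batch share a library and differ in depth. The pair Scn1a and Scn8a had 0.85 ± 0.09 on UMI, 0.04 ± 0.42 over the cell total and 0.10 ± 0.30 after thinning.

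The 3 genes of highest correlation with each member were taken over 103 cells with at least 10000 UMI, by Spearman correlation of UMI over the cell total ranked within batches, among 6049 genes. The highest of so many correlations are large by selection alone, so these names are a description. They were Kif21b (0.35), 1700037H04Rik (0.33) and Pik3ca (0.32) for Scn1a, and Rpl31 (0.35), Rad23b (0.35) and Crbn (0.34) for Scn2a1. For Scn8a they were Brix1 (0.41), Eif3m (0.37) and Hecw1 (0.37). For Scn2b they were Gm10684 (1.00), which held the same UMI, Lphn1 (0.35) and Hnrnpa2b1 (0.34). Scn3a, Scn3b and Scn4b were detected in under 50% of these cells, and no likeness was computed for them.

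Other sodium channel genes and the genes around the channel were read beside the members. Scn9a, a gene of the same chromosome 2 cluster best known from sensory neurons and chosen after its values were seen, averaged 96.0 ± 42.9 CPM in ChC and 42 ± 13.1 CPM in Pv batches. Per kilobase of the longest annotated transcript it was at 9.75 CPM in ChC and 4.27 CPM in Pv. Its span overlaps Gm13629 on the opposite strand, a row with 886 UMI, and the UMI of the overlap could not be told apart.

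Of 38 genes for other subunits, the sodium leak channel, channel anchoring, cytosolic partners, regulators, the sodium pump and potassium channels of fast spiking, 32 were tested and 0 called. Among them 17 were higher and 15 lower in ChC, with a median log2 fold change of 0.05. Ank3, the ankyrin that holds sodium channels at the axon initial segment, had a log2 fold change of −0.14 ± 0.56. Fgf14 and Fgf13, cytosolic partners of the alpha subunits, had 0.05 ± 0.66 and 2.70 ± 1.08 (all SE, edgeR adjusted p from 0.705 to 0.999). Fgf13 was at 433, 57.5, 70.7 and 158 CPM in ChC and at 10.2, 27.9, 91.6 and 10 CPM in Pv batches, which overlapped. Kcna2, an axonal potassium channel, was the only gene of the 32 tested whose ChC batches all lay below the Pv batches, at 22.3, 162, 53.2 and 92.6 CPM against 1004, 743, 382 and 408 CPM. That is 1 of 32 genes, beside 2.05% of all genes tested.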

How the data were processed

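The authors aligned poly(A)-primed reads to mm9 with Bowtie 0.12.7 and deposited UMI counts per transcript and cell without normalization, for 27207 transcripts and 128 cells. Here 2 cells without counts were left out. The members and all gene lists were chosen with earlier results of these data known. The member rule sums rows of a gene name. The criterion for leaving that rule was that over 50% of pairs of rows be equal in every cell. It was met over all pairs (3658 of 6744, 54.2%), many of which hold no counts, but not over pairs with counts (1848 of 4934, 37.5%). The row with the most UMI was used and the sum became an alternative. Of 3478 overlapping pairs with counts, 99.4% shared at least 90% of the smaller row. UMI were summed per animal and compared with edgeR 4.0.16 (filterByExpr, TMM, quasi-likelihood test, Benjamini-Hochberg over all genes tested, threshold 0.05) in R 4.3.3. TMM factors were 0.946 and 1.03 for the ChC animals and 0.930 and 1.11 for the Pv animals. Shares were compared by two-sided exact permutation over animals. Alternatives were DESeq2 1.42.0, no filter, no TMM, batches as samples (edgeR, or limma 3.58.1 with the animal as a block), thinning to 10000 or 5000 UMI, summed rows, lengths, and leaving out each animal or batch. Division by genomic span, for shares and levels, was added after the data were seen. All 7 members are named. Likeness used the 3 genes of highest correlation. Ank3, Fgf13 and Fgf14 were fixed examples of the channel list. Of its other genes, Kcna2 is named for batches without overlap. Scn9a, Nalcn, Unc79 and Unc80 are named although they passed no threshold. Nedd4l, Kcnc2 and Kcna1 had an unadjusted edgeR p under 0.05 but were not called. The fits were tested on simulated counts. Exonic lengths and sequences came from GENCODE on NCBIM37, the mm9 assembly. Python 3.11.15, numpy 2.4.6, scipy 1.17.1, pandas 2.3.3 and matplotlib 3.10.9 were used.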

Additional observations from a re-analysis of the deposited data

Results flagged for a closer look

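Batch 2 of ChC lay far from the other ChC batches in 4 measures of the beta subunits. Scn3b was at 185 CPM against 11.2 to 19.6 CPM in the other ChC batches. Its share of the beta subunit UMI was 35.2% against 7.35 to 9.82%, and the Scn2b share was 64.8% against 90.2 to 92.7%. The summed beta subunits were at 527 CPM against 152 to 213 CPM. In each case the gap to the nearest batch was 0.838 to 0.952 of the range of the 4 batches. Of 30 groups of 4 batches examined, these were the 4 past the limit of the outlier test, where chance gives about 1 in 20. They are not separate observations, since all 4 hold the Scn3b UMI of 1 batch.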

How the results depend on the processing

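The number of genes called between ChC and Pv depended on the method. It was 158 with DESeq2, 84 without the filter, 6 with batches as samples in edgeR, 6 in limma-voom with the animal as a block and 1 with cells thinned to 10000 UMI. It was 0 to 2 on leaving out a batch and 14 to 96 on leaving out an animal, and no member was called in any of these. With batches as samples, the share differences were 3.60 points for Scn3a, −13.2 for Scn2b and 13.4 for Scn3b. Each had an exact permutation p of 0.0286, or 0.0667 adjusted over the 7 shares. Those of Scn2b and Scn3b mirror each other and are not separate results. Leaving out a batch moved the share difference of Scn1a between −15.7 and 0.567 points, of Scn2a1 between −2.98 and 6.63, and of Scn8a between −2.20 and 6.46, while Scn3a, Scn2b and Scn3b kept their signs. The log2 difference in beta per alpha UMI lay between −1.20 (without batch 2) and 0.0635 (without batch 1). The log2 fold change of Scn1a was −0.20 in limma-voom and −0.17 with thinned cells, and leaving out samples took it from −0.45 to 0.53. That of Scn2a1 was −0.14 with thinned cells and from −0.35 to 1.02 on leaving out samples. That of Scn2b ranged from −1.16 to 0.042, both on leaving out an animal. For Ank3 the range was −0.61 to 0.19. Fgf14 was at −0.06 without TMM and −0.014 with batches in edgeR, and from −0.47 to 0.91 on leaving out samples. Of the 109 member fold changes under alternatives, 99 kept their direction and 10 turned. Of the 101 share differences, 90 neither turned direction nor changed side of the threshold. These include Scn4b differences of 0 with thinned cells and without batch 8, which have no direction. Scn3a and Scn3b failed the filter with batches as samples, and Scn3b also with thinned cells, so these values are missing. Leaving out an animal leaves 1 sample in a group, which is assumed to vary like the other group. The mean member correlation was 0.084 over the cell total and −0.0077 with thinned cells. The mean share of cells with a member was 41.7% at 5000 UMI. The cause of these changes was not tested.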

Other observations

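The sodium leak channel carries a resting sodium current. Nalcn, its pore, was at 656, 201, 82.9 and 33.8 CPM in ChC and at 22.9, 23.2, 139 and 310 CPM in Pv batches. Unc79, an auxiliary subunit, was at 449, 173, 44.7 and 65.0 CPM in ChC and at 115, 2.32, 148 and 102 CPM in Pv batches. Unc80, another auxiliary subunit, stayed between 87.8 and 192 CPM in all 8 batches.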
